A study of Arabidopsis thaliana with 8 samples.

Results

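The 9 genes described here encode enzymes that inactivate the plant hormone auxin in Arabidopsis thaliana, and they were taken by locus identifier from a table of raw read counts for 33602 genes. They are GH3.1 (AT2G14960), GH3.2 (AT4G37390, BRU6), GH3.3 (AT2G23170), GH3.5 (AT4G27260, WES1), GH3.6 (AT5G54510, DFL1), GH3.9 (AT2G47750), GH3.17 (AT1G28130), DAO1 (AT1G14130) and DAO2 (AT1G14120). All 9 were in the table, and all 9 passed the filter on low counts. The RNA came from whole seedlings of a pair of hybrids: C24 crossed with pif4-101, called the pif4 hybrid below, and C24 crossed with Col, called the Col hybrid. Col and C24 are natural accessions, and pif4-101 is a mutant allele of PIF4, a transcription factor of growth in warmth and shade. C24 was a parent of both hybrids, so the pif4 hybrid still had a C24 copy of PIF4. Each hybrid was grown at 27 °C or at 22 °C and sampled 7 or 4 days after sowing at ZT0, the time of lights on. All seeds were first kept cold and then germinated at 22 °C in short days, and seedlings were pooled before RNA was extracted. The 8 combinations of hybrid, temperature and age gave 1 library each, so temperature, age and hybrid were each compared over 4 libraries against 4 that share the other factors. Temperature within 1 hybrid or on 1 day sets 2 libraries against 2. All p-values rest on the spread left between the 8 libraries.

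Auxin, chiefly indole-3-acetic acid (IAA), drives cell elongation in seedling stems and petioles, and growing tissue holds its level by balancing synthesis against inactivation. GH3 enzymes of the IAA group join IAA to amino acids, and many GH3 genes are themselves switched on by auxin through auxin response factors, which makes them a negative feedback. DAO dioxygenases take the other route and oxidise IAA, or its conjugates, to inactive products. In warm seedlings PIF4 is known to raise auxin synthesis, and elongation follows.

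The genes lie on chromosomes 1, 2, 4 and 5 of the TAIR10.1 assembly. DAO1 (chr1:4835724-4837771) and DAO2 (chr1:4833396-4835089) are neighbours on the minus strand, 634 bases apart, and their coding sequences were 81.3% identical. Among the GH3 genes the closest pair was GH3.5 (chr4:13653579-13656285, plus strand) and GH3.6 (chr5:22130964-22133688, minus strand), with 84.1% identity over the coding sequence. GH3.2 (chr4:17579618-17582022, plus strand) and GH3.3 (chr2:9863855-9866562, minus strand) were the next closest at 79.6%. GH3.1 (chr2:6451319-6453797, minus strand) and GH3.17 (chr1:9825169-9828118, plus strand) overlapped no other annotated gene. The 5′ end of GH3.9 (chr2:19560127-19563960, minus strand) is overlapped by a non-coding gene of the opposite strand, AT2G09955, which was not analysed here. The strand setting of the counting is not given in the sources used here, so GH3.9 counts may hold reads of that transcript.

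The 250 bases before the annotated start are shown for the 4 GH3 genes that rose with temperature and for DAO2, the gene that rose most with age. They are the RefSeq reference letters, 5′ to 3′ on the strand of the gene, not the C24 alleles. Capitals mark TGTCTC, the auxin response element, and CACGTG, the G-box that PIF proteins can bind. Both strands were searched, and the motifs did not overlap each other. The windows are chr4:17579368-17579617 (plus strand) for GH3.2, chr2:9866563-9866812 (minus strand) for GH3.3, chr4:13653329-13653578 (plus strand) for GH3.5, chr5:22133689-22133938 (minus strand) for GH3.6 and chr1:4835090-4835339 (minus strand) for DAO2.
GH3.2: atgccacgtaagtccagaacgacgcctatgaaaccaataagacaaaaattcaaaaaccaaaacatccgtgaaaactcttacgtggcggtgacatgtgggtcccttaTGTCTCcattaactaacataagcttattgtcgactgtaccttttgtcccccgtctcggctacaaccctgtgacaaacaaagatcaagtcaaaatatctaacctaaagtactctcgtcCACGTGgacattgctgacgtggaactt
GH3.3: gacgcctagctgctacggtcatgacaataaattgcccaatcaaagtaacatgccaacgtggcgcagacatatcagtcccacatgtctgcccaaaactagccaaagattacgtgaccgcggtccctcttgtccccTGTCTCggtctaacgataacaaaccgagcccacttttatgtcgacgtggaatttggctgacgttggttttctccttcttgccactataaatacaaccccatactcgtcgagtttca
GH3.5: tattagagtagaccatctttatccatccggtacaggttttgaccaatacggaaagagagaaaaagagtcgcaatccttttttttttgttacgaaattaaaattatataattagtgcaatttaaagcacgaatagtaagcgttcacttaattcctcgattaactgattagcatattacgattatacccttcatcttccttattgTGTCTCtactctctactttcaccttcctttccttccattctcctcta
GH3.6: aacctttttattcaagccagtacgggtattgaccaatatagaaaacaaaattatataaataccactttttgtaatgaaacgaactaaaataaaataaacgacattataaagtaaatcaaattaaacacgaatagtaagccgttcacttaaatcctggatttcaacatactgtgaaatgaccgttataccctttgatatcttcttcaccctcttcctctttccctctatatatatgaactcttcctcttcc
DAO2: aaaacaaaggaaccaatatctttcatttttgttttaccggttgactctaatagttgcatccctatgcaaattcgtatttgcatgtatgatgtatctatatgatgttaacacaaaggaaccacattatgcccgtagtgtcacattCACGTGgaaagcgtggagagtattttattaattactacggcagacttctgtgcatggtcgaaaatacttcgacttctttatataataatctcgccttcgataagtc
TGTCTC stood in the windows of 3 of the 9 genes, at -144 in GH3.2, -116 in GH3.3 and -47 in GH3.5, counted back from the gene start to the first base of the motif. Of 27443 such windows, those of the protein-coding genes, 10.9% held it. CACGTG stood in 2 of the 9, at -27 in GH3.2 and -106 in DAO2, and in 6.49% of all windows. TGTCGG, a form of the element with higher affinity, was in 0 of the 9 and in 4.16% of all. The longest run shared by any pair of the 9 windows was cacgaatagtaagc, 14 bases that began at -125 in both GH3.5 and GH3.6 and occurred in 2 of the 27443 windows. A match to a motif describes the letters and does not show binding.

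**Figure D1:**
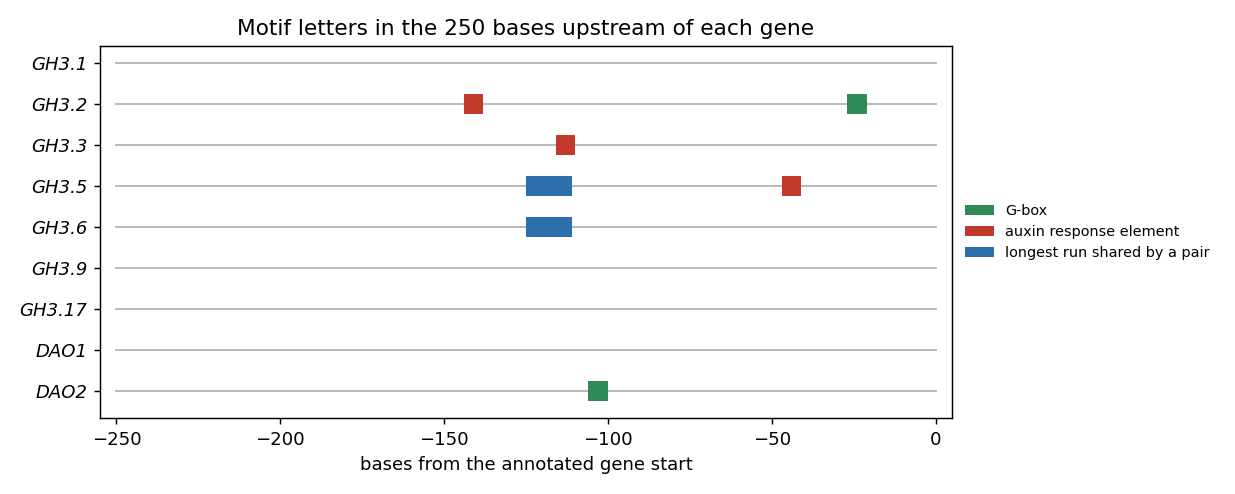
Positions of the searched letters in the 250 bases before each annotated gene start (x axis, bases from the start), 1 line per gene; red blocks are auxin response elements, green blocks G-boxes and blue blocks the 14-base run shared by GH3.5 and GH3.6. GH3.2 is the gene with both kinds of motif, and 4 genes (GH3.1, GH3.9, GH3.17 and DAO1) show no block. The window of DAO1 reaches into the next gene, 155 bases upstream, and that of GH3.9 into the overlapping AT2G09955.

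The libraries held between 1664128 and 25440561 counts. The shallowest was the Col hybrid at 22 °C on day 4, where a count of 3 equals 2.15 CPM (counts scaled to library size, here after TMM normalisation), and the deepest was the Col hybrid at 27 °C on day 7, where it equals 0.106 CPM. In 3 of the 4 pairs the 27 °C library was the deeper. PIF4 itself, the mutated gene, had 62.5 to 186 CPM in the pif4 hybrid and 72.8 to 187 in the Col hybrid, a log2 difference of -0.16 ± 0.11 (SE; adjusted p = 1), so its read count did not separate the hybrids. PIF4 rose with temperature by 1.21 ± 0.11 on the log2 scale (SE; edgeR adjusted p = 1.65e-05), where 19.5% of all genes rose. Leaf marker genes summed to 6071 to 12068 CPM at 27 °C and 10335 to 30184 at 22 °C, and 5 of 6 fell with temperature and 3 of 6 with age. Of 9 root markers tested, 0 changed with temperature and 5 fell with age. Of all genes tested, 19.2% fell with temperature and 24% with age. The 4 seed markers at 27 °C on day 4 summed to 27.1 CPM in the pif4 hybrid and 82.2 in the Col hybrid. Most of both sums, 25.9 and 77.3 CPM, came from 1 of the 4 genes. In every other library the seed markers summed to at most 1.43 CPM, and flower markers summed to at most 2.08 CPM in any library. Whether these shifts in marker levels reflect organ makeup or bear on the auxin genes was not tested. In whole seedlings fewer cells of a type and less RNA per cell cannot be told apart.

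Per kilobase of exon, the highest levels were those of GH3.6 and GH3.5. Averaged over the 8 libraries, GH3.6 stood at 41.2 ± 8.89 CPM per kilobase (SD, n = 8), GH3.5 at 36.5 ± 17.3 and GH3.17 at 23.97 ± 3.131. DAO2 followed at 17.4 ± 6.50 and DAO1 at 11.2 ± 1.86. GH3.3 averaged 8.38 ± 3.31, GH3.2 7.84 ± 2.97, GH3.9 3.71 ± 2.43 and GH3.1 0.768 ± 0.314 CPM per kilobase. GH3.1 held the last place in all 8 libraries, with 2 to 54 counts, and its values are the least precise. Neighbours in this order changed places between libraries: GH3.6 was above GH3.5 in 5 of 8, GH3.5 above GH3.17 in 6, GH3.17 above DAO2 in 6 and DAO2 above DAO1 in 7. GH3.5 had the top level in 3 of the 4 libraries at 27 °C, whereas GH3.6 had it in all 4 at 22 °C. The largest spread belonged to GH3.9, 4.81 times from its lowest to its highest library, and the smallest to GH3.17, 1.46 times.

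**Figure D2:**
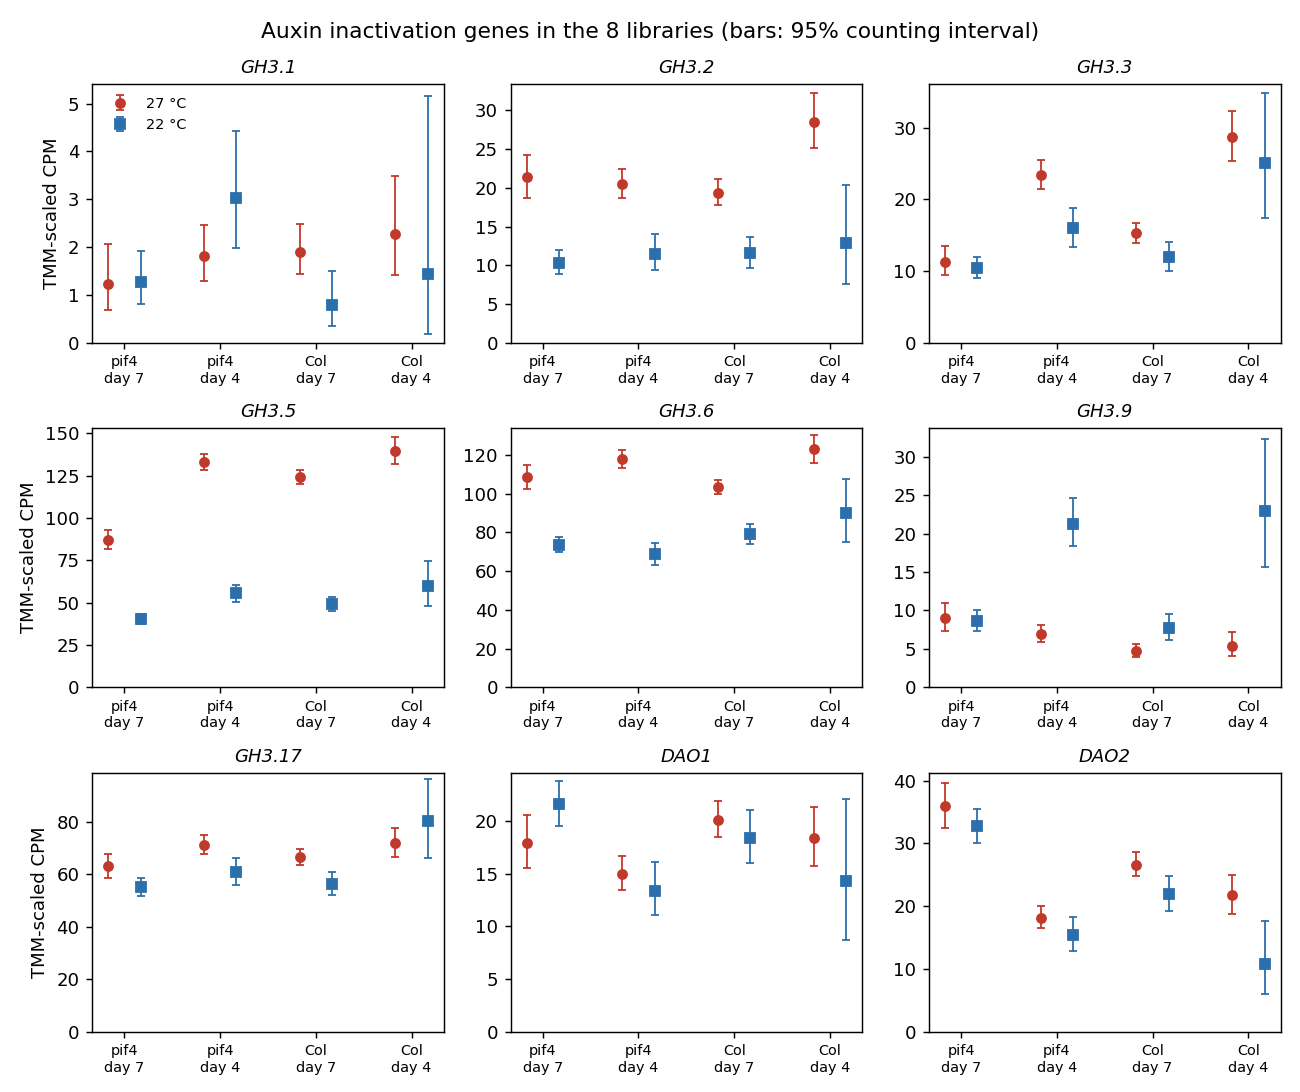
TMM-scaled CPM (y axis) of each gene in the 8 libraries, with hybrid and day on the x axis; red circles are 27 °C, blue squares 22 °C, and bars the 95% exact Poisson interval, which covers counting error only. In GH3.2, GH3.5 and GH3.6 every red circle lies above every blue square, and the wide bars of GH3.1 come from 2 to 54 counts.

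At 27 °C against 22 °C, 4 of the 9 genes rose and 1 fell. Leaving out each library in turn gave 3 to 6 genes called. GH3.5, GH3.2, GH3.6 and GH3.3 were the genes that rose. GH3.9, known for an effect of its mutant on root growth, fell. Of all 19829 genes tested, 38.7% passed the same threshold (edgeR quasi-likelihood test, Benjamini-Hochberg adjusted p under 0.05), 19.5% of all higher and 19.2% lower. The median log2 fold change was 0.32 over the 9 genes and 0.01 over all genes.

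GH3.5, an enzyme that conjugates salicylic acid as well as IAA, had the largest change. At 27 °C it had 87.3 and 132.8 CPM in the pif4 hybrid on days 7 and 4, and 124 and 139.7 CPM in the Col hybrid on the same days. At 22 °C it had 40.2 and 55.4 CPM in the pif4 hybrid, and 48.9 and 60.1 CPM in the Col hybrid. The groups did not overlap, and the means were 121 ± 23.4 CPM at 27 °C and 51.1 ± 8.63 CPM at 22 °C (SD, n = 4 each). The log2 fold change was 1.23 ± 0.11 (SE; adjusted p = 9.72e-06), a 2.35-fold rise, and the 4 matched pairs gave 1.12 to 1.34.

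GH3.2 rose 1.90-fold. At 27 °C it had 21.4 and 20.5 CPM in the pif4 hybrid on days 7 and 4, and 19.4 and 28.6 CPM in the Col hybrid. At 22 °C the pif4 hybrid had 10.4 and 11.5 CPM and the Col hybrid 11.5 and 12.9 CPM. The lowest value at 27 °C was above the highest at 22 °C, and the log2 fold change was 0.93 ± 0.13 (SE; adjusted p = 0.000222).

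GH3.6, whose overexpression in the dfl1 mutant dwarfs light-grown seedlings, rose less. At 27 °C it had 108 and 118 CPM in the pif4 hybrid on days 7 and 4, and 103 and 123 CPM in the Col hybrid, while at 22 °C it had 73.6 and 68.7 CPM in the pif4 hybrid and 79.1 and 90.1 CPM in the Col hybrid. The groups again did not overlap, and the log2 fold change was 0.55 ± 0.11 (SE; adjusted p = 0.00168). Over all genes tested, 9.02% had 4 libraries at 27 °C that all lay above the 4 at 22 °C, against 3 of these 9. The upstream windows of GH3.5 and GH3.6 share the 14-base run given above, and that of GH3.2 does not hold it. Whether the run bears on these changes was not tested.

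GH3.3 was higher at 27 °C in all 4 pairs, with pair ratios of 0.12 to 0.56 on the log2 scale, but the temperature groups overlapped. It had 11.3 and 23.5 CPM at 27 °C in the pif4 hybrid on days 7 and 4 and 15.2 and 28.7 CPM in the Col hybrid, against 10.4 and 15.9 CPM at 22 °C in the pif4 hybrid and 11.9 and 25.04 CPM in the Col hybrid. The log2 fold change was 0.32 ± 0.12 (SE; adjusted p = 0.0444). This call was lost in 11 of 17 alternative settings, and adjusted p reached 0.75 when every library was thinned to the depth of the shallowest. It was lost without any 1 of 6 libraries: those of the Col hybrid other than 27 °C on day 4, and those of the pif4 hybrid other than 22 °C on day 7, with adjusted p from 0.0522 to 0.202.

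GH3.9 showed its change on day 4. At 27 °C it had 9.0 and 6.99 CPM in the pif4 hybrid on days 7 and 4, and 4.76 and 5.43 CPM in the Col hybrid. At 22 °C the pif4 hybrid had 8.65 CPM on day 7 and 21.3 on day 4, and the Col hybrid had 7.70 on day 7 and 22.9 on day 4. The day 4 libraries at 22 °C were thus the high ones in both hybrids, and the other 6 lay between 4.76 and 9.0 CPM. Over both days the log2 fold change was -0.97 ± 0.26 (SE; adjusted p = 0.011). On day 4 alone it was -1.74 ± 0.24 (adjusted p = 0.000537), and on day 7 it was -0.32 ± 0.22 (adjusted p = 0.274). The difference between these, tested as the interaction of age and temperature, was 1.42 ± 0.32 (SE; unadjusted p = 0.000544) and missed the threshold after adjustment over all genes (adjusted p = 0.109). The temperature call over both days was lost without the pif4 hybrid library at 22 °C on day 4 (adjusted p = 0.0756), without that at 27 °C on day 4 (0.0709), with all libraries thinned to the same depth (0.0964) and with library total as a covariate (0.0792).

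DAO2 was higher at 27 °C in all 4 pairs, by 0.14 to 1.02 on the log2 scale, and its fold change of 0.33 ± 0.15 missed the threshold (SE; adjusted p = 0.0922). It had 35.9 and 18.2 CPM at 27 °C in the pif4 hybrid on days 7 and 4 and 26.6 and 21.7 CPM in the Col hybrid, against 32.7 and 15.4 CPM at 22 °C in the pif4 hybrid and 21.9 and 10.7 CPM in the Col hybrid. The largest pair ratio came from the Col hybrid on day 4, where the 22 °C library had 15 counts. Over all genes, 24.7% were higher at 27 °C in all 4 pairs, against 5 of these 9 (GH3.2, GH3.3, GH3.5, GH3.6 and DAO2).

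DAO1, the main IAA oxidase of Arabidopsis, had a temperature fold change of 0.05 ± 0.13 on the log2 scale (SE; adjusted p = 0.772). It had 17.9 and 15.0 CPM at 27 °C in the pif4 hybrid on days 7 and 4 and 20.1 and 18.4 CPM in the Col hybrid, against 21.6 and 13.4 CPM at 22 °C in the pif4 hybrid and 18.4 and 14.3 CPM in the Col hybrid. GH3.17, which prefers glutamate as the amino acid it joins to IAA, ranged from 63.0 to 72.0 CPM at 27 °C and from 55.0 to 80.1 CPM at 22 °C, and its log2 fold change was 0.14 ± 0.10 (SE; adjusted p = 0.282). GH3.1 had 1.24 to 2.28 CPM at 27 °C and 0.787 to 3.03 CPM at 22 °C, and its log2 fold change was 0.12 ± 0.33 (SE; adjusted p = 0.801). In each of these 3 genes the temperature groups overlapped.

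**Figure D3:**
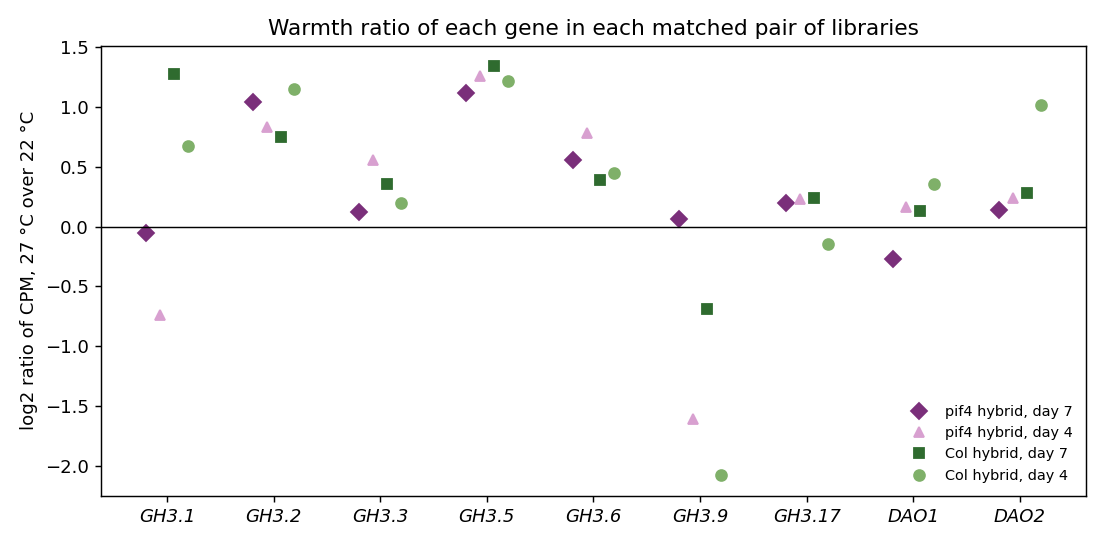
Log2 ratio of CPM at 27 °C over 22 °C (y axis) for each gene in the 4 matched pairs of libraries, coloured by hybrid and day; each point compares 1 library with 1 library. The 4 points of GH3.5 lie between 1.12 and 1.34, those of GH3.9 separate by day, and those of GH3.1 lie on opposite sides of 0 in the 2 hybrids. The GH3.1 point of the pif4 hybrid on day 7 is at -0.05.

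Both hybrids and both ages carried the change of GH3.5 and GH3.2. Within the pif4 hybrid GH3.5 rose by 1.2 ± 0.16 (adjusted p = 0.00204), GH3.2 by 0.93 ± 0.19 (0.0121) and GH3.6 by 0.66 ± 0.16 (0.0211) on the log2 scale (SE), where 13.2% of all genes passed and 6.3% rose. Within the Col hybrid GH3.5 rose by 1.28 ± 0.17 (adjusted p = 0.00143) and GH3.2 by 0.93 ± 0.21 (0.0169), where 11.1% of all genes passed and 4.67% rose. GH3.6 had 0.42 ± 0.16 (SE) there and did not pass (adjusted p = 0.11). On day 7 GH3.5 rose by 1.24, GH3.2 by 0.89 and GH3.6 by 0.47 on the log2 scale, where 35.8% of all genes passed and 17.7% rose. On day 4 GH3.5 rose by 1.23, GH3.2 by 0.99 and GH3.6 by 0.63, where 11.1% passed, 4.94% of all higher and 6.14% lower. Among these comparisons of 2 libraries against 2, those within 1 hybrid and on day 4 depended on single libraries, for the 9 genes and for all genes alike. Within the pif4 hybrid 0 of the 9 passed without its library at 27 °C on day 4, where 90 genes passed in all, against 2618 with every library. Within the Col hybrid 0 passed without its library at 22 °C on day 7 (5 genes in all, against 2207), and on day 4 0 passed without the pif4 hybrid at 22 °C (72 in all, against 2197). On day 7 2 or 3 of the 9 rose whichever library was left out, while the count over all genes ran from 2058 to 9539 (7092 with every library).

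The interaction of hybrid and temperature, which asks whether warmth acted differently in the pif4 hybrid, passed for 0 of the 9 genes and for 0% of all genes (edgeR; 188 genes and 1 of the 9 at an unadjusted p under 0.05). DESeq2 and limma also called 0 genes. For GH3.5 the estimate was -0.08 ± 0.23 and for GH3.2 it was 0.00 ± 0.30 on the log2 scale (SE). Differences well above these errors could also have been missed. For GH3.9 the age and temperature term was 1.42 ± 0.32 (SE) and did not pass (edgeR adjusted p = 0.109). The interaction of age and temperature passed for 0 of the 9 and for 0.267% of all genes, and that of hybrid and age for 0 of the 9 and for 0.0908% of all genes.

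With age 2 of the 9 genes rose, DAO1 and DAO2, and 2 fell, GH3.3 and GH3.5, on day 7 against day 4. Of all genes, 48.8% passed this comparison, 24.8% higher and 24% lower, so the count over the 9 genes was near that over all genes. The other 5 GH3 genes did not pass, and the median log2 fold change was -0.22 over the 9 genes and 0.00 over all. GH3.3 fell most, by 0.90 ± 0.12 on the log2 scale (SE; adjusted p = 1e-04). Its day 7 values of 10.4 to 15.2 CPM all lay below its day 4 values of 15.9 to 28.7 CPM, and 14.2% of all genes were likewise lower without overlap. GH3.5 fell by 0.39 ± 0.10 (SE; adjusted p = 0.00819), and was lower on day 7 in 4 of 4 pairs, as were 26.6% of all genes, although the groups overlapped. Its call was lost with library totals as the only scaling (adjusted p = 0.057) and without the pif4 hybrid library at 27 °C on day 7 (0.0665).

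DAO2 rose by 0.79 ± 0.15 on the log2 scale with age (SE; adjusted p = 0.000913), 1.73-fold. Its day 7 values ran from 21.9 to 35.9 CPM and its day 4 values from 10.7 to 21.7 CPM, so the groups just failed to overlap, and 15.8% of all genes were likewise higher. Its neighbour DAO1 averaged 19.5 ± 1.67 CPM on day 7 and 15.3 ± 2.17 CPM on day 4 (SD, n = 4 each), higher in 4 of 4 pairs, as were 28.8% of all genes, with overlapping groups. The log2 fold change of DAO1 was 0.34 ± 0.13 (SE; adjusted p = 0.0414), a call lost in 9 of 17 alternative settings. It was lost without any 1 of the 4 libraries of the pif4 hybrid (adjusted p from 0.0568 to 0.193), and without the Col hybrid at 27 °C on day 7 (0.0535) or at 22 °C on day 4 (0.0816). GH3.1, GH3.2, GH3.6, GH3.9 and GH3.17 had age estimates of -0.69 to -0.11 and did not pass, with adjusted p from 0.0725 to 0.402. GH3.9 passed in 7 of 17 alternative settings, with adjusted p down to 0.00863 without the pif4 hybrid at 27 °C on day 7. The interaction of hybrid and age was largest for DAO2, 0.62 ± 0.23 (SE), and did not pass (adjusted p = 0.573).

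Between the hybrids 0 of the 9 genes passed the threshold, and 0.00504% of all genes did (edgeR). At an unadjusted p under 0.05 the count was 2 of the 9, GH3.3 and GH3.5, against 4.01% of all genes. DESeq2 called 0 of the 9 and 12 genes in all, and limma called 0. GH3.3 averaged 15.3 ± 5.97 CPM in the pif4 hybrid and 20.2 ± 7.93 CPM in the Col hybrid (SD, n = 4 each), a log2 difference of -0.36 ± 0.12 (SE; adjusted p = 1). GH3.5 averaged 78.9 ± 40.9 CPM in the pif4 hybrid and 93.2 ± 45.3 CPM in the Col hybrid, a log2 difference of -0.25 ± 0.10 (SE; adjusted p = 1). These genes and GH3.17 had the lower value in the pif4 hybrid in 4 of 4 pairs, as did 6.08% of all genes. The other 6 genes had estimates from -0.17 (GH3.2) to 0.41 (GH3.9).

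**Figure D4:**
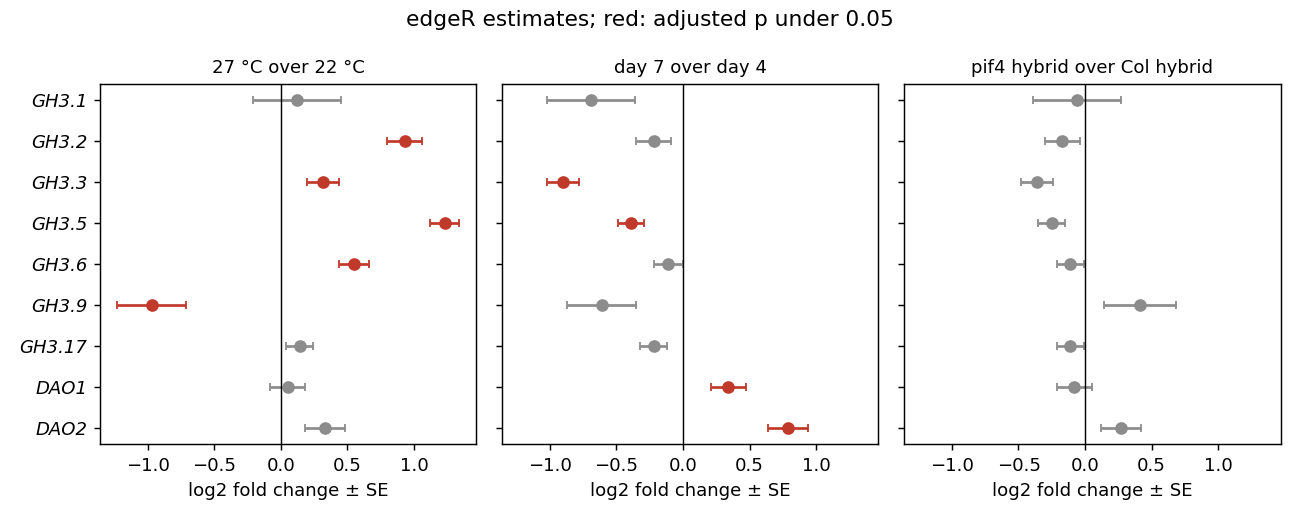
Log2 fold change with its standard error (x axis) of each gene for 27 °C over 22 °C, day 7 over day 4 and the pif4 hybrid over the Col hybrid, from the edgeR fit; red marks an adjusted p under 0.05. Red points number 5 for temperature, 4 for age and 0 for hybrid.

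Summed per kilobase of exon, the 7 GH3 genes were higher at 27 °C than at 22 °C in all 4 pairs. The sums at 27 °C were 125.5 and 156.9 CPM per kilobase in the pif4 hybrid on days 7 and 4, and 140.1 and 168 in the Col hybrid. At 22 °C they were 82.1 and 96.8 in the pif4 hybrid, and 89.3 and 119.9 in the Col hybrid. GH3.5 made up 29.5% to 37.6% of that sum at 27 °C and 20.8% to 24.3% at 22 °C. The 2 DAO genes summed to 28.5 to 38.9 CPM per kilobase on day 7 and 17.4 to 28.4 on day 4. The ratio of the GH3 sum to the DAO sum ran from 2.12 to 4.22 on day 7 and from 4.77 to 6.90 on day 4. Temperature did not order this ratio in the same way throughout: it was higher at 27 °C in 3 pairs and lower in the Col hybrid on day 4 (5.93 at 27 °C, 6.90 at 22 °C). The sums, the share and the ratio restate the changes of single genes given above. No like values over all genes were computed to set beside them. These sums describe transcript levels and say nothing of enzyme activity.

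**Figure D5:**
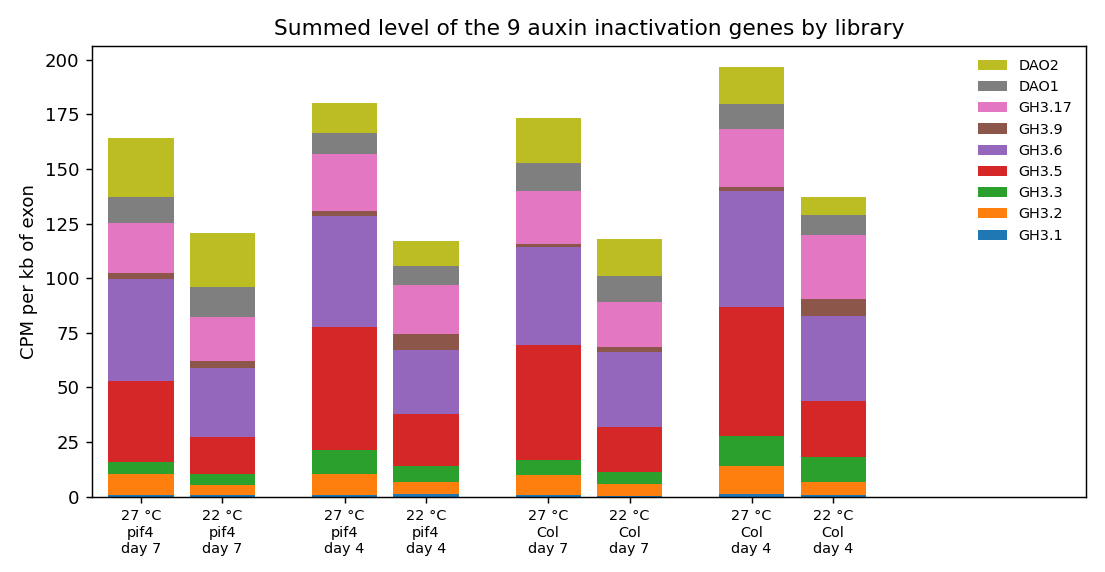
Stacked CPM per kilobase of exon (y axis) of the 9 genes in each library (x axis), with 27 °C left of 22 °C within each hybrid and day; colours are genes and there are no error bars, since each bar is 1 library. The GH3.5 segment is larger at 27 °C in each pair, and the DAO segments together are larger on day 7 than on day 4.

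The other genes of the auxin pathway moved in part. Of 12 further members of the GH3 family, 9 could be tested, of which 2 rose and 2 fell with temperature (median log2 fold change 0.11). The counts in this and the other pathway lists stand beside 19.5% of all genes higher and 19.2% lower with temperature, and 24.8% higher and 24% lower with age. AT5G13370 rose by 0.58 ± 0.10 on the log2 scale (SE; adjusted p = 0.000874), JAR1, which joins jasmonate to isoleucine, rose by 0.34 ± 0.10 (0.0173), and AT1G48670 fell by 1.18 ± 0.31 (0.00897). With age 2 of these rose and 3 fell, among them PBS3, an enzyme of salicylic acid synthesis, which rose by 2.15 ± 0.46 (adjusted p = 0.00201) from a mean of 0.96 CPM over all libraries. AT5G13370 fell by 0.83 ± 0.10 (adjusted p = 5.91e-05) and AT1G23160 fell by 1.7 ± 0.30 (0.000615). GH3.4 had 0 counts in all 8 libraries, where a count of 3 equals 0.106 to 2.15 CPM.

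Of 7 genes of the hydrolase family that includes enzymes releasing IAA from its conjugates, 6 were tested. Of these, 0 passed for temperature or for age (edgeR, over all genes). The enzymes that make or cleave auxin esters gave 1 rise and 1 fall with temperature among 5 tested of 6. UGT74E2, which glucosylates the auxin precursor indole-3-butyric acid, had 7.41 and 14.7 CPM at 27 °C in the pif4 hybrid on days 7 and 4 and 7.45 and 20.1 CPM in the Col hybrid, against 17.1 and 24.7 CPM at 22 °C in the pif4 hybrid and 20.5 and 32.2 CPM in the Col hybrid. It fell by 1.04 ± 0.15 on the log2 scale (SE; adjusted p = 0.000262) and was lower at 27 °C in every pair, the opposite direction to GH3.5. UGT75D1, another auxin glucosyltransferase, rose by 0.31 ± 0.09 (adjusted p = 0.0166). With age 4 of the 5 fell and 1 rose: UGT75D1 fell by 0.95 ± 0.09 (adjusted p = 1.38e-05), IAMT1, the IAA methyltransferase, fell by 1.41 ± 0.19 (0.000146) and UGT74E2 fell by 0.91 ± 0.15 (0.000389).

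On the supply and response side, 1 of 7 tested synthesis genes of 11 listed rose with temperature and 0 fell. That gene was YUC8, a flavin monooxygenase of IAA synthesis, which rose by 0.97 ± 0.20 on the log2 scale (SE; adjusted p = 0.00226). With age TAR2, an aminotransferase of the step before, rose by 0.42 ± 0.15 (adjusted p = 0.0303). Of 6 auxin receptors 2 rose with temperature, AFB3 by 0.36 (adjusted p = 0.0123) and AFB1 by 0.40 (0.0146), and 4 fell with age. Of 5 activating auxin response factors 3 rose with temperature, ARF6 by 1.03 (adjusted p = 0.000267), ARF7 by 0.78 (0.00145) and ARF19 by 0.48 (0.0318), and all 5 fell with age. Between the hybrids 0 genes of these 6 lists passed.

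Across the 8 libraries the log2 levels of GH3.2, GH3.5 and GH3.6 moved together, with Pearson r of 0.94 for GH3.2 and GH3.5, 0.95 for GH3.2 and GH3.6 and 0.92 for GH3.5 and GH3.6. DAO1 and DAO2 had r = 0.82, and GH3.3 and GH3.17 had r = 0.88. These values are descriptions over libraries that share temperature, age and depth. Among 15804 genes that averaged 5 CPM or more, the patterns most like GH3.5 were those of AT5G58090 (r = 0.99), AT1G21680 (0.99) and AT2G45620 (0.989). GH3.2 and GH3.6 both had DA1 among their 3 closest (r = 0.982 and 0.97), beside AT2G36950 and AT3G17100 for GH3.2, and CID9 and NPY5 for GH3.6. AT1G78260 was the closest to GH3.3 (r = 0.99), followed by EXO (0.987). CYP709B3 was the closest to GH3.9 (0.979) and ERA1 the closest to GH3.17 (0.992). For DAO2 the closest were AT2G18410 (r = 0.991), ABP1 (0.983) and AXR1 (0.983), and for DAO1 they were AT1G18740 (0.966), TUA1 (0.963) and AT4G27745 (0.96). Each of these genes was picked for the highest r among 15804 over only 8 libraries, so a high r is no evidence of a link.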

How the data were processed

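The values are raw read counts per gene for 33602 loci in 8 libraries, as deposited by the authors. The submitters' processing notes list HTSeq 0.6.1p1, StringTie 1.3.5, HISAT2, FastQC 0.11.5 and Picard with the TAIR10 build, and no settings; the labels name a stranded and an unstranded library kit without saying which library had which, so antisense reads may be counted. Reads of C24 alleles may map less well to a Col reference. The table had 0 columns that could not be mapped to a sample. Coordinates, lengths and sequences are from RefSeq TAIR10.1, in which 32835 loci matched by locus tag; the names DAO1 and DAO2 are not in RefSeq.

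Genes with at least 0.876 CPM (10 counts in the median library) in at least 4 libraries were kept, 19829 in all. Counts were scaled by TMM and fitted in edgeR 4.0.16 (R 4.3.3) with temperature, age and hybrid as additive terms (4 residual degrees of freedom) or with 1 interaction added (3 residual degrees of freedom). The quasi-likelihood F test was adjusted by Benjamini-Hochberg over all genes kept, with a threshold of 0.05; the standard error is the log2 fold change divided by the root of F. Nothing in the labels shows independent replicates, and the residual spread includes any interaction left out. CPM in the text are TMM-scaled; Poisson intervals and floors cover counting error only. Alternatives used limma 3.58.1 and DESeq2 1.42.0. Coding sequences were aligned with Biopython 1.88.

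The members and lists were chosen with earlier results of these data known. Named genes are all 9 members, PIF4, up to 3 genes per pathway list with the smallest temperature p and up to 3 with the smallest age p among those that passed, and up to 3 genes most like a member.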

Additional observations from a re-analysis of the deposited data

Results flagged for a closer look

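GH3.1, an IAA-amido synthetase gene of very low level, gave opposite signs of warmth in the 2 hybrids. In the pif4 hybrid it was lower at 27 °C in both pairs, with log2 ratios of -0.05 on day 7 and -0.74 on day 4, and in the Col hybrid it was higher in both, with 1.28 on day 7 and 0.67 on day 4. The interaction of hybrid and temperature was -1.48 ± 0.62 (SE; unadjusted p = 0.0335 and adjusted p = 1 in edgeR), so it did not pass. The counts behind it were 14, 41, 54 and 21 at 27 °C and 23, 26, 9 and 2 at 22 °C, for the pif4 hybrid on days 7 and 4 and the Col hybrid on days 7 and 4. Without single libraries the estimate ran from -1.92 to -1.08. The pif4 hybrid pair on day 7 hardly differed, at 1.24 CPM at 27 °C and 1.27 CPM at 22 °C. The Col hybrid at 22 °C on day 4 had 1.43 CPM from 2 counts, with a 95% Poisson interval of 0.173 to 5.17 CPM. The counts thus do not settle the signs of these pairs.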

How the results depend on the processing

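The rises of GH3.2, GH3.5 and GH3.6 with temperature, the fall of GH3.3 with age and the rise of DAO2 with age passed in all 17 alternative settings, with log2 ranges over libraries left out of 0.83 to 1.03, 1.16 to 1.31, 0.45 to 0.62, -0.98 to -0.85 and 0.68 to 1.03. Leaving out each library in turn gave 3 to 6 genes called for temperature (5 with all), 0 to 3 within the pif4 hybrid (3 with all), 0 to 3 within the Col hybrid (2 with all), 0 to 5 on day 4 (4 with all) and 0 to 2 for the interaction of age and temperature (0 with all). The counts over all genes moved too: 4246 to 9827 for temperature (7676 with all), 90 to 6120 within the pif4 hybrid (2618), 5 to 6195 within the Col hybrid (2207), 72 to 5202 on day 4 (2197) and 0 to 1780 for that interaction (53). With log2 library total as a covariate temperature called 3, and 0 within the Col hybrid; with library totals as the only scaling, which shifts the median temperature change of all genes to 0.15, the Col hybrid gave 5 and the interaction of age and temperature 1. Without the filter that interaction gave 1, and thinning all libraries to 1664128 counts left 1 within the pif4 hybrid. The cause was not tested. Estimates that were not called turned sign for DAO1 with temperature (-0.03 to 0.18 over libraries left out), -0.03 without the Col hybrid at 22 °C on day 7 and -0.02 without the pif4 hybrid at 22 °C on day 4, and for GH3.1 (-0.23 to 0.57), -0.23 without the Col hybrid at 22 °C and -0.21 without it at 27 °C on day 7. DAO2 passed for temperature with library totals alone (adjusted p = 0.0162), thinned (0.047) and without the pif4 hybrid at 22 °C on day 7 (0.0428). With age GH3.9 passed with DESeq2 (0.047), with library totals alone (0.0333), without the filter (0.0355) and without any 1 of the 4 libraries at 27 °C (0.00863 to 0.0485), GH3.1 without the Col hybrid at 27 °C on day 7 (0.0154) and GH3.17 without it at 27 °C on day 4 (0.026). GH3.1 could not be tested when thinned or with 10 counts asked of every library. The labels give no replicate numbers to block on. Hybrid and age entered the temperature test as additive terms, without a separate term for each matched pair of libraries. Depth limits GH3.1 most, and the shallowest library, the Col hybrid at 22 °C on day 4, had 444 counts over all 9 genes.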
